A study of Arabidopsis thaliana with 9 samples.

Results

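The transcriptome of dark-grown Arabidopsis seedlings labelled spaQ was set against that of the wild type Col-0, from 3 raw-count libraries of each. Every feature of the count table entered the comparison, and 20779 of 33655 features had enough reads to be tested, while 7726 were at 0 in every library. The table came from 9 libraries of 3-day-old whole seedlings, all in the Col-0 ecotype: wild type, the mutant cop1-4 and the mutant spaQ, with 3 replicates of each. All 3 genotypes went through one regime, in which stratification lasted 3 days at 4 °C in darkness, and seeds then had 3 h of white light, 21 h of darkness, far-red light and 2 more days of darkness. The wild type and spaQ therefore differ by genotype and not by light, and cop1-4 entered the same fit, adding to the estimate of spread, and is compared with spaQ at the end. spaQ commonly denotes a quadruple mutant of the SPA genes, SPA1 to SPA4. The labels give neither its alleles nor the origin of replicates from separate sowings, and p-values thus cover only the spread among these libraries, which may be technical.

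SPA proteins form complexes with COP1, a RING-type ubiquitin ligase, and these complexes act with CUL4 and DDB1 to send light-signalling transcription factors such as HY5 to the proteasome in darkness. Light inactivates the complexes through phytochromes and cryptochromes, and the stabilised factors then start de-etiolation. Seedlings without COP1 or SPA function are short and open their cotyledons in darkness, and in such tissue the genes of chloroplasts, pigments and elongation growth are the usual readouts.

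The 6 libraries compared held from 27651857 to 38770474 counted reads. TMM scaling, which sets libraries to a common scale by their middle genes, put the median log2 fold change of all genes at -0.02, whereas library totals put it at -0.39. Each change is a log2 fold change of spaQ against Col-0 and stands relative to that median, and levels are CPM, read counts of a gene scaled to 1 library size. A gene was called at an adjusted p-value under 0.05 in edgeR's quasi-likelihood test. Whether counting used strand is not given in the sources used here, and values of genes that overlap another gene are uncertain for that reason. A whole-seedling library mixes organs, and fewer cells of a type and less RNA per cell cannot be told apart in any value below. Of 12 transcripts often used as references, 4 were called higher, 3 lower and 5 were not called, with a median of 0.13 that library totals turned to -0.25. Among them the actin gene ACT7 read 618, 589.7 and 661 CPM in Col-0 and 277, 238 and 273 CPM in spaQ, a fall by 1.25 (SE 0.09).

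The targeted loci do not check the spaQ label, because a mutated gene can still be transcribed and counted. SPA1 (AT2G46340, chr2:19022154-19027528 in TAIR10.1) read 29.8, 34.6 and 29.2 CPM in Col-0 and 40.1, 39.1 and 37.5 CPM in spaQ, and SPA4 (AT1G53090, chr1:19783185-19786902) read 10.6, 13 and 11.1 CPM in Col-0 and 59.1, 64.1 and 62.2 CPM in spaQ. No SPA1 or SPA4 library of spaQ was as low as a Col-0 library. The log2 fold changes were 0.32 for SPA1, 0.06 for SPA2 (adjusted p = 0.61, edgeR), 0.37 for SPA3 and 2.42 for SPA4, of which the first 3 turn to -0.053, -0.31 and -0.0074 with library totals. COP1 (AT2G32950, chr2:13977881-13983609) read 29.7, 34.9 and 29.8 CPM in Col-0 and 79.4, 83.2 and 75.1 CPM in spaQ, a rise by 1.33 (SE 0.09). Of 8 genes for the CUL4, DDB1, DET1 and COP9 signalosome parts of the machinery 6 were called higher and 0 lower, with a median of 0.30 that library totals turned to -0.077. DET1, a partner of DDB1 that also holds back light responses, was higher by 0.96 (SE 0.08). Each direction below rests on the label spaQ.

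Most of the transcriptome differed between the libraries labelled spaQ and Col-0. Of the genes tested, 14878 (71.6%) were called, 7386 (35.5%) higher and 7492 (36.1%) lower in spaQ. With a change of at least 2-fold asked for as well, 3503 genes (16.9%) were higher and 3474 (16.7%) lower, and 682 and 639 changed by at least 8-fold. With library totals 15931 genes were called, 4760 higher and 11171 lower, so that 29.9% of calls were rises against 49.6% with TMM. The spaQ and Col-0 libraries did not overlap for 15659 genes (75.4%). A call is therefore the common outcome for a gene in this comparison, and a list of genes is described below by its direction and its size of change, set beside 35.5% higher, 36.1% lower and a median of -0.02 over all genes. A set of 53 lists with 857 genes was used, of which 817 passed the filter on low counts. A gene can pass the filter through 1 genotype alone, so the counts within lists describe the members tested.

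**Figure D1:**
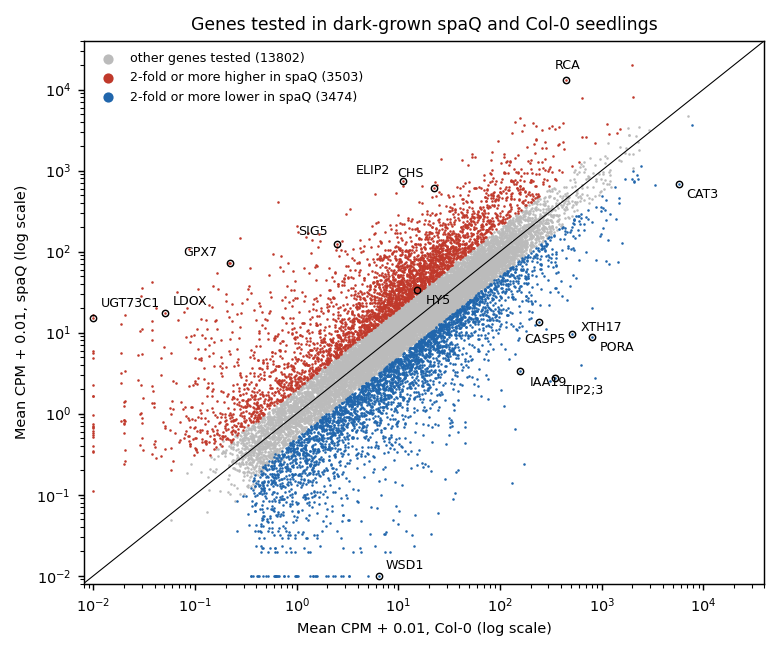
Mean CPM in Col-0 (x axis) against mean CPM in spaQ (y axis) for each gene tested, both on log axes with 0.01 CPM added, n = 3 libraries per genotype. Genes called at 2-fold or more stand in colour, 3503 higher and 3474 lower in spaQ, and the labelled genes are ones described in the text.

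The transcription factors that COP1 and SPA act on, and the family around them, changed in both directions. HY5, the bZIP factor at the head of photomorphogenesis, read 15.9, 15.3 and 14.3 CPM in Col-0 and 34.2, 35.5 and 32.3 CPM in spaQ, and its relative HYH read 5.6, 3.92 and 3.25 CPM in Col-0 and 105, 98.8 and 94.4 CPM in spaQ. The libraries did not overlap for either gene, and the rises were 1.16 for HY5 (SE 0.09) and 4.53 for HYH (SE 0.15). HFR1, a bHLH protein that binds PIF factors and keeps them from DNA, rose by 1.6. Of 26 light-signalling factors tested, 19 were called higher and 6 lower, with a median of 1.63.

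The B-box zinc finger genes held the widest range among these factors. BBX25, whose product holds back HY5 activity, read 1.23, 1.24 and 1.33 CPM in Col-0 and 168, 165 and 170.5 CPM in spaQ, which makes a rise by 7.04 (SE 0.10). BBX30 and BBX31, for small B-box proteins, rose by 8.8 and 5.94, BBX32 by 7.39 and BBX24 by 2.85. BBX23, which promotes photomorphogenesis together with HY5, went the other way at 10.9, 10.8 and 8.67 CPM in Col-0 and 0.0365, 0.0856 and 0.0391 CPM in spaQ. Its spaQ libraries held 1 to 3 reads each and lay far below the Col-0 libraries, with a fall by 7.38 (SE 0.33). BBX21, another promoting member, fell by 1.08, while BBX22 rose by 1.57.

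Factors for chloroplast genes and for dark growth also split. The GATA factor gene CGA1, which promotes chlorophyll accumulation, read 0.366, 0.311 and 0.576 CPM in Col-0 and 23.5, 21.1 and 25.6 CPM in spaQ and rose by 5.8 (SE 0.19), and its relative GNC rose by 1.68. GLK2, an activator of photosynthesis genes, rose by 2.23, whereas its relative GLK1 fell by 0.47. Among the PIF genes, whose products keep seedlings etiolated, PIF3 fell by 1.52 from 84.6, 90.05 and 87.5 CPM in Col-0 to 30.5, 33.2 and 27.6 CPM in spaQ. PIF5 rose by 2.55 and PIF7 by 4.66, the latter with 14% of its length overlapped by another gene.

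Photoreceptor genes moved less than the factors below them. Of 22 genes for photoreceptors and partners, 12 were called higher and 6 lower, and their median of 0.25 turned to -0.12 with library totals. PHYA, for the phytochrome that senses far-red light, fell by 0.58, and FHY1 and FHL, for the proteins that carry it into the nucleus, fell by 1.72 and 3.04. PHYB, for the main phytochrome of red light, rose by 1.22 and the cryptochrome gene CRY1 by 0.69. The phototropin gene PHOT1 fell by 1.08 and PHOT2 rose by 2.24, with 29.7% of PHOT2 overlapped by another gene. RUP2, for a protein that switches off the UV-B receptor UVR8, read 3.24, 2.18 and 2.76 CPM in Col-0 and 105, 102 and 107 CPM in spaQ and rose by 5.25 (SE 0.12). RPT2, which acts with phototropins in bending towards light, read 45.5, 44.4 and 44.9 CPM in Col-0 and 721, 698 and 716 CPM in spaQ and rose by 3.98. No library of one genotype came near the other for RUP2 or RPT2.

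Nuclear genes for making a chloroplast rose nearly as a block. All 19 tested genes for the plastid transcription machinery were higher, with a median of 1.83, as were all 29 genes for plastid ribosomal proteins, with a median of 2.39. SIG5, a sigma factor that directs the plastid polymerase to its promoters, read 2.54, 2.58 and 2.4 CPM in Col-0 and 111, 141 and 118 CPM in spaQ, a rise by 5.62 (SE 0.12). The other 5 sigma factor genes rose by 2.06 (SIG4) to 2.38 (SIG1). TRXZ, a thioredoxin bound to the polymerase, rose by 2.25. The ribosomal proteins kept to a narrow band from 1.94 to 3.03, the upper end being RPL12-A, which has 30.0% of its length overlapped.

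Genes for protein import into plastids rose less evenly. Of 12 genes 10 were called higher and 1 lower, with a median of 1.16. TOC33, for a receptor of the outer envelope, rose by 1.25, and CLPC1, for the chaperone at the inner side, rose by 1.89 (SE 0.12). TOC159, for the receptor of photosynthetic precursors, rose by 0.54, a call lost without Col-0 replicate 1 (0.48) or Col-0 replicate 3 (0.41) and with library totals (0.17). TOC120, for a receptor linked to housekeeping precursors, fell by 0.34. TIC20-I is overlapped over its whole length by another gene of near-identical sequence, so its value of 1.63 is uncertain.

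Genes of chlorophyll and carotenoid synthesis mostly rose, with opposite moves within 1 step of the chlorophyll pathway. Of 25 chlorophyll genes 23 were higher and 2 lower, and both that fell encode a light-dependent protochlorophyllide oxidoreductase, the enzyme that needs light to act. PORA, typical of etiolated tissue, read 852, 812 and 775 CPM in Col-0 and 10.003, 6.31 and 10.4 CPM in spaQ, a fall by 6.52 (SE 0.17), and PORB read 1275, 1156 and 1112 CPM in Col-0 and 84.6, 58 and 70.9 CPM in spaQ, a fall by 4.05 (SE 0.14). PORC, the form of green tissue, read 30.9, 27.5 and 27.5 CPM in Col-0 and 70.4, 68.5 and 67 CPM in spaQ and rose by 1.26 (SE 0.08). The libraries of the genotypes did not overlap at any of the 3 genes. Upstream of that step, GUN5, for the large subunit of magnesium chelatase, rose by 3.18, CHLI1, for another subunit of it, by 2.83, and HEMA1, at the entry of the pathway, by 2.37. FLU, which holds back the pathway in darkness, rose by 1.84. All 18 tested genes for carotenoids and their plastid precursors were higher, with a median of 2.13. In that list ZEP and NPQ1, for the opposite reactions of the xanthophyll cycle, rose by 3.9 and 2.8, and PSY, for the first committed step, by 2.12.

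The light-harvesting antenna rose from a low dark level. Of 20 genes tested, 19 were called higher and 0 lower, with a median of 2.53 and 0.394% to 0.484% of counted reads per library in Col-0 against 1.23% to 1.47% in spaQ. LHCB2.1 (AT2G05100) read 18.1, 17.8 and 15.1 CPM in Col-0 and 585, 641 and 708 CPM in spaQ, a rise by 5.24 (SE 0.11), and LHCA1, of the photosystem I antenna, read 75.7, 66.8 and 66 CPM in Col-0 and 744, 966 and 922 CPM in spaQ, a rise by 3.66 (SE 0.11). LHCB1.1, LHCB1.2 and LHCB1.3 have near-identical coding sequences whose reads can be shared, so their separate rises of 5.8, 3.29 and 1.1 are uncertain. LHCB1.4 at 0.24 (-0.13 with library totals) was not called, and LHCB1.5, overlapped over its whole length, was not tested.

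Photosystem, carbon fixation and photorespiration genes rose further. All 31 nuclear genes for photosystems and electron transport were higher by at least 2-fold, with a median of 2.95, led by PSBO2 of the oxygen-evolving complex (4.59) and PSAN of photosystem I (4.05). In the Calvin cycle, 19 of 20 genes were higher and 1 lower, with a median of 3.41. The summed reads of that list went from 0.681% to 0.799% of a library to 5.87% to 6.31%. RCA, the activase that keeps Rubisco working, read 477, 448 and 409.6 CPM in Col-0 and 12562, 13478 and 13816 CPM in spaQ, and CP12-2, for a linker protein of cycle enzymes, rose by 5.2. The 1 gene that was lower, RBCS2B (-1.08), shares near-identical sequence with RBCS3B (3.62), so these 2 values are uncertain. All 13 photorespiration genes rose, with a median of 3.42, and their summed reads went from 0.204% to 0.225% to 2.15% to 2.37%. GGT1, a peroxisomal aminotransferase of that pathway, read 161, 167 and 142 CPM in Col-0 and 3998, 4603 and 4575 CPM in spaQ, and its rise was 4.81 (SE 0.12). HPR, for hydroxypyruvate reductase, rose by 4.67.

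**Figure D2:**
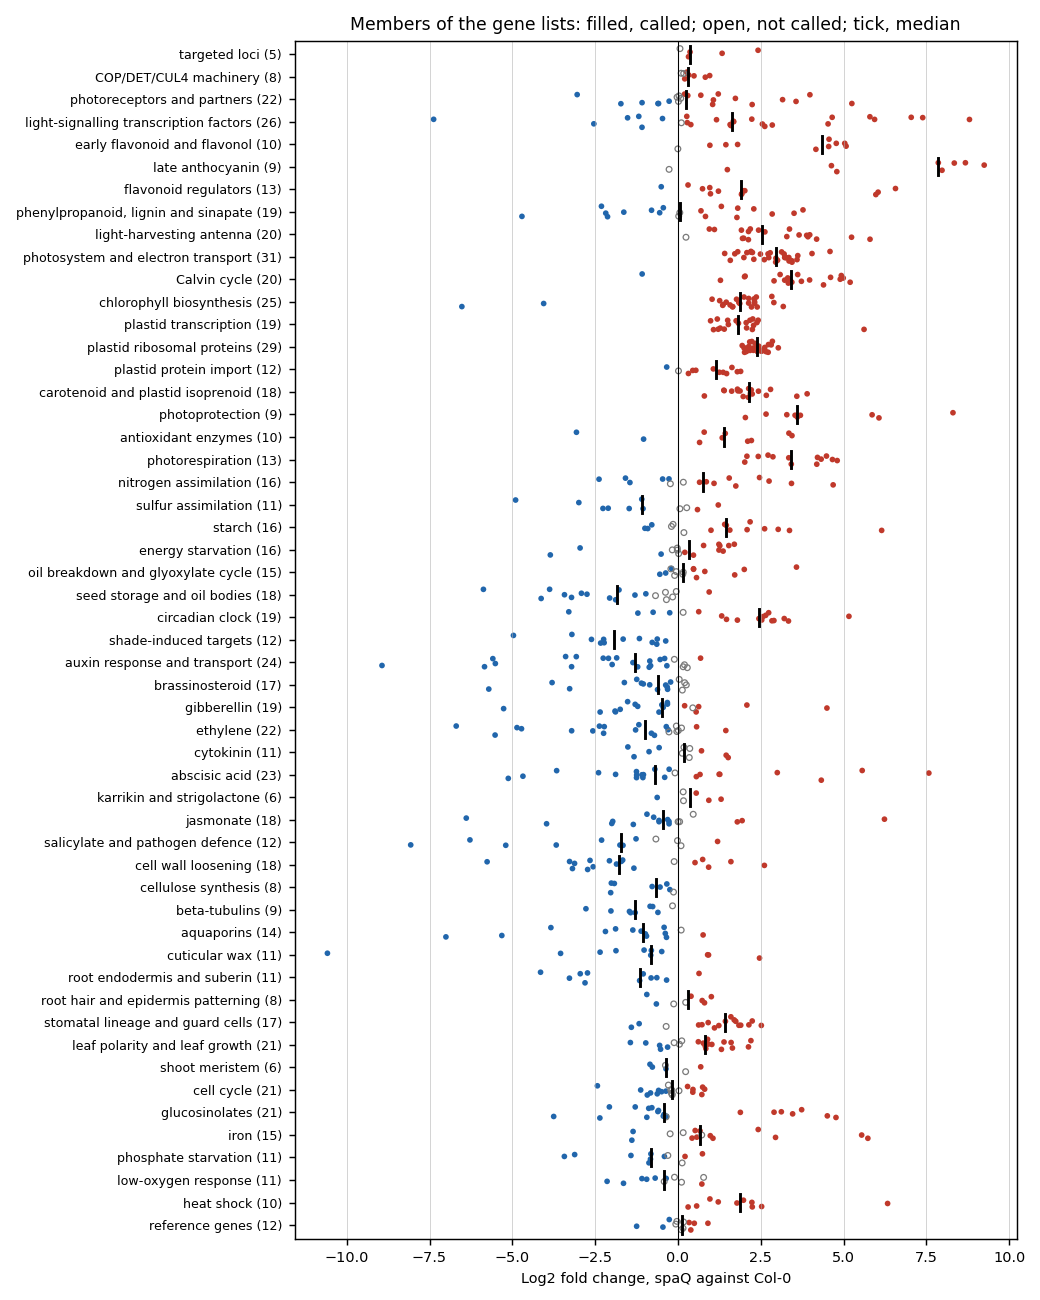
Log2 fold change of spaQ against Col-0 (x axis) for each tested member of the 53 gene lists (rows, with the number of members tested), from 3 libraries per genotype. Filled points were called at an adjusted p under 0.05 and open points were not. The black tick of a row is its median, highest for late anthocyanin at 7.86, which rests on few Col-0 reads.

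Genes for protection from light and UV rose in these dark-grown seedlings. All 9 were higher by at least 2-fold, with a median of 3.6. GPX7 (AT4G31870), a plastid glutathione peroxidase, read 0.392, 0.0933 and 0.152 CPM in Col-0 and 69.9, 72.6 and 71.8 CPM in spaQ, a rise by 8.3 (SE 0.18), though 31.2% of its length is overlapped by another gene. ELIP2, an early light-induced protein of thylakoids, read 14.6, 10.3 and 8.34 CPM in Col-0 and 787, 723 and 729 CPM in spaQ, a rise by 6.07 (SE 0.18), and ELIP1 rose by 5.86. The photolyase genes PHR1 and UVR3, whose products repair UV damage in DNA with the help of light, rose by 3.54 and 2.66.

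The catalase genes moved in opposite directions. CAT2, the catalase of photosynthetic tissue, read 310.0, 313 and 291 CPM in Col-0 and 3332, 3150.3 and 3456 CPM in spaQ, a rise by 3.44 (SE 0.10). CAT3 read 5550.0, 5747 and 6017 CPM in Col-0 and 719, 661 and 690.3 CPM in spaQ, a fall by 3.06 (SE 0.10). The libraries of the genotypes lay wide apart for both. Of 10 antioxidant genes tested, 8 were higher and 2 lower, with the plastid enzymes PRXQ at 3.35 and TAPX at 2.22 among the rises and the cytosolic superoxide dismutase gene CSD1 at -1.04.

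The late anthocyanin list had the highest median of the 53 lists. Of 9 late anthocyanin genes tested, 8 were higher and 0 lower, with a median of 7.86 on the log2 scale. DFR, the branch point towards anthocyanin, read 0.0523, 0.0311 and 0.0910 CPM in Col-0 and 17.5, 12.6 and 13.4 CPM in spaQ. Its rise of 7.86 is also the median of the list. LDOX, for the next step, read 0, 0.0622 and 0.0607 CPM in Col-0 and 20.8, 15.5 and 16.5 CPM in spaQ, and SCPL10, for a sinapoyl transferase that decorates anthocyanin, read 0, 0.0933 and 0 CPM in Col-0 and 21.5, 19.5 and 19.5 CPM in spaQ. LDOX and SCPL10 rose by 8.68 (SE 0.34) and 9.25 (SE 0.29). In Col-0 no library reached 0.1 CPM at DFR, LDOX, SCPL10 or the list members TT19 and UGT79B1. The folds of these genes and the median of the list therefore rest on few Col-0 reads. AHA10 at -0.27 was not called, and BAN and TT12, genes of seed coat tannins, had too few reads to be tested.

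Among the earlier steps, CHS and FLS1 were already read in the wild type, while F3H was near 0 there. Of 10 early flavonoid and flavonol genes, 9 were higher and 0 lower, with a median of 4.36. CHS, the entry enzyme, read 25.8, 19.4 and 21.6 CPM in Col-0 and 693, 520.1 and 627 CPM in spaQ, a rise by 4.78 (SE 0.13). FLS1, which makes flavonols, read 2.85, 2.77 and 3.34 CPM in Col-0 and 113, 90.103 and 99.8 CPM in spaQ, a rise by 5.08 (SE 0.12). UGT78D2 (AT5G17050), which adds glucose to flavonols and anthocyanins, rose by 4.17. F3H read 0.209, 0.0622 and 0 CPM in Col-0 and 1.86, 1.74 and 3.56 CPM in spaQ. Its value of 4.56 rests on few Col-0 reads. It is also uncertain because another gene overlaps 94.5% of the length of F3H.

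Regulators of the pathway rose on both sides. Of 13 regulators 12 were higher and 1 lower, with a median of 1.92. The bHLH gene TT8 read 0.288, 0.0622 and 0 CPM in Col-0 and 9.35, 9.36 and 6.8 CPM in spaQ, a rise by 6.04 (SE 0.42), and the flavonol regulator MYB12 read 0.0784, 0.0622 and 0.152 CPM in Col-0 and 5.73, 6.36 and 6.95 CPM in spaQ, a rise by 5.98 (SE 0.32). Neither gene had overlapping libraries. MYB75 and MYB90, for anthocyanin activators, rose by 1.93 and 1.96, and the repressor genes MYBL2 and LBD38 by 2.02 and 1.92. EGL3, a bHLH relative of TT8, fell by 0.50, a call lost without spaQ replicate 1 (-0.44) or spaQ replicate 3 (-0.40).

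The phenylpropanoid genes that feed both flavonoids and lignin did not share 1 direction. Of 19 tested, 9 were higher and 8 lower, with a median of 0.06 that library totals turned to -0.32. PAL4, for a phenylalanine ammonia-lyase, read 127, 145 and 150.1 CPM in Col-0 and 4.97, 5.36 and 5.78 CPM in spaQ, a fall by 4.71 (SE 0.10), while PAL3 rose by 2.29. The lignin-linked ligase genes 4CL1 and 4CL2 fell by 2.31 and 2.18, while 4CL3, linked to flavonoids, rose by 3.78. HCT, of lignin synthesis, fell by 1.63. FAH1 and SNG1, of sinapate ester synthesis, rose by 3.51 and 1.81.

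Clock genes were mostly higher. Of 19 clock genes 14 were higher and 4 lower, with a median of 2.44. PRR9, expressed in the morning in light-dark cycles, read 0.680, 0.715 and 0.880 CPM in Col-0 and 23.7, 31 and 26.8 CPM in spaQ, a rise by 5.16 (SE 0.15). The morning factor genes CCA1 and LHY rose by 2.74 and 2.44, the coactivator gene LNK2 by 3.34 and PRR5 by 3.21. Among genes of the evening complex, ELF4 rose by 2.57 while ELF3 fell by 0.75. BOA, a relative of the evening factor LUX, fell by 3.3, with 47.9% of its length overlapped. Each genotype was sampled at 1 time, so a difference in phase and one in mean level cannot be told apart.

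Genes induced by shade or low light all fell. Of 12 tested, 0 were higher and 12 lower, with a median of -1.94. The homeobox gene HAT2 read 78.2, 70.7 and 81.2 CPM in Col-0 and 12.6, 12.4 and 12.7 CPM in spaQ, a fall by 2.61 (SE 0.11), and its relatives HB-2 and HAT3 fell by 1.65 and 2.24. PRE1, for a growth-promoting bHLH protein, read 9.8, 10.4 and 9.19 CPM in Col-0 and 0.475, 0.143 and 0.352 CPM in spaQ, a fall by 4.97 (SE 0.26). Every Col-0 library stood above every spaQ library for all 12. PIL1, an early shade marker, fell by 0.78, among the smaller changes of the list.

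Auxin genes were mostly lower. Of 24 auxin genes 1 was higher and 19 lower, with a median of -1.29. IAA19 (AT3G15540), an auxin-induced gene for a repressor that acts in hypocotyl growth, read 152, 148 and 175 CPM in Col-0 and 3.61, 2.91 and 3.4 CPM in spaQ, a fall by 5.59 (SE 0.12). IAA6 read 24.5, 21.7 and 26.8 CPM in Col-0 and 0.110, 0 and 0.0391 CPM in spaQ and fell by 8.94 (SE 0.29), and IAA29 by 5.51. The gene that rose was IAA14, at 0.68. Some genes of synthesis and transport were also lower. TAA1 of the main auxin synthesis route stood at -2.26, the shade list's YUC9 at -3.2 and the efflux carrier gene PIN7 at -1.85. PIN5, an efflux carrier family gene outside the list, read 0 in every Col-0 library and 2.04, 2.45 and 2.27 CPM in spaQ. IAA6 lies on chromosome 1 within 250 kb of SPA4, a window in which 69.7% of 109 tested genes were called. The shares were 74.5% of 102 around COP1, 73.8% of 122 around SPA1, 74.1% of 81 around SPA2 and 74.4% of 125 around SPA3. Called at 2-fold were 31.2% around SPA4, 36.3% around COP1, 31.1% around SPA1, 40.7% around SPA2 and 32.8% around SPA3, against 33.6% of all genes. AT4G11020 in the SPA2 window read 2.41, 2.39 and 2.31 CPM in Col-0 and 0.110, 0.143 and 0.0391 CPM in spaQ.

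The stretches upstream of 4 members of the flavonoid, antenna, photoprotection and auxin lists, those with the lowest adjusted p in each list, are shown because they moved furthest beyond their error and in opposite directions. Each window holds the 250 bases before the annotated start, from the RefSeq genome TAIR10.1, written in the direction of the gene. Capitals mark the G-box CACGTG, the I-box GATAAG and the auxin response element TGTCTC, searched on both strands.
UGT78D2 (chr5:5609590-5609839, minus strand): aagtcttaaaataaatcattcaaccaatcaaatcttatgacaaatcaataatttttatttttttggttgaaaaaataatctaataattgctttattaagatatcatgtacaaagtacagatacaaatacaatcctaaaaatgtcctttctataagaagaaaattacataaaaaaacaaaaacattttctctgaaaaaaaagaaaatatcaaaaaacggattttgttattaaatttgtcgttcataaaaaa
LHCB2.1 (chr2:1824481-1824730, minus strand): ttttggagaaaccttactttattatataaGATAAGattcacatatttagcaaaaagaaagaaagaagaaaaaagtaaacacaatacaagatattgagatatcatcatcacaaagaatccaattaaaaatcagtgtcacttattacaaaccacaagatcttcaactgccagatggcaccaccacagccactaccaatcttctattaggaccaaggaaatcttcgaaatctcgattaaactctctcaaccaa
GPX7 (chr4:15409828-15410077, plus strand): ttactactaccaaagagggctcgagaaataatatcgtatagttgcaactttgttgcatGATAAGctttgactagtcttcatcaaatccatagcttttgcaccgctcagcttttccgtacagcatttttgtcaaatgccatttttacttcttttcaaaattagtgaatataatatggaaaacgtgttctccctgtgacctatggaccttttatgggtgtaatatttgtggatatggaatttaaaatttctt
IAA19 (chr3:5263751-5264000, plus strand): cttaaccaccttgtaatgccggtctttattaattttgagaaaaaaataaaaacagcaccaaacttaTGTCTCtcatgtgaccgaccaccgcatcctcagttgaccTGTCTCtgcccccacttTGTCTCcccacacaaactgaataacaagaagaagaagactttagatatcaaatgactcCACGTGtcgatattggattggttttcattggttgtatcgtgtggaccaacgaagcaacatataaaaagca

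The IAA19 window held TGTCTC 3 times, starting 184, 145 and 128 bases before the gene start, and 1 CACGTG starting 70 bases before it. The LHCB2.1 and GPX7 windows each held 1 GATAAG, starting 221 and 192 bases before the start, and the UGT78D2 window held none of the 3 motifs. Over 20271 windows of tested protein-coding genes, 7.42% held the G-box, against 8.05% of windows of genes at least 2-fold higher, 6.76% of those at least 2-fold lower and 7.12% of those not called. GATAAG stood in 12.3% of all windows, 14.5% of the higher genes, 12.4% of the lower genes and 10.7% of genes not called. TGTCTC stood in 10.7% of all windows and in 25% of the auxin list (6 of 24), a share also reached by the plastid protein import and root hair lists and passed by iron (26.7%) and cellulose synthesis genes (37.5%). The G-box stood in 7 of 19 clock windows, 6 of 15 iron windows and 5 of 20 antenna windows. It also stood in 3 of 10 early flavonoid, 3 of 9 late anthocyanin, 3 of 9 photoprotection and 3 of 10 heat shock windows. Plastid ribosomal genes, all of which rose, held it in 1 of 29 windows. Seed storage genes, of which 12 fell, held it in 9 of 18 windows, against 0 of 12 shade windows. These matches describe letters in a window and not bound sites.

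Brassinosteroid and gibberellin genes fell on balance. Of 17 brassinosteroid genes 0 were higher and 13 lower, with a median of -0.62. DWF4, for the step that limits synthesis, read 51.5, 52.8 and 53.5 CPM in Col-0 and 17.5, 17.3 and 16.5 CPM in spaQ, a fall by 1.62 (SE 0.07), and BR6OX1, for a later step, fell by 3.8. The receptor gene BRI1 fell by 1.05. PRE5 and IBH1, whose products act against each other on cell elongation, fell by 5.71 and 3.27.

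Of 19 gibberellin genes 5 were higher and 13 lower, with a median of -0.49. GA20OX1, of synthesis, read 13, 12.2 and 14.5 CPM in Col-0 and 0.475, 0.342 and 0.195 CPM in spaQ, a fall by 5.26 (SE 0.22). GA3OX2, for the last step of synthesis, read 0.131, 0.0933 and 0.273 CPM in Col-0 and 4.56, 2.8 and 4.14 CPM in spaQ, a rise by 4.5 (SE 0.39), and GA2OX1, for inactivation, rose by 2.08. The Col-0 libraries of GA3OX2 held few reads. The DELLA repressor genes GAI, RGL1 and RGL3 fell by 1.29, 2.35 and 1.9.

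Ethylene synthesis in etiolated seedlings feeds the apical hook. Of 22 ethylene genes 2 were higher and 15 lower, with a median of -0.99. All 7 tested genes of ACC synthase, the limiting enzyme, were lower. ACS5 read 42.9, 42.7 and 49.6 CPM in Col-0 and 0.438, 0.485 and 0.352 CPM in spaQ, a fall by 6.69 (SE 0.15), and ACS4 and ACS8 fell by 4.86 and 4.72. EFE, for an oxidase of the last step, rose by 1.45. HLS1, required for the hook, read 21, 18.7 and 18.6 CPM in Col-0 and 1.93, 2.37 and 1.95 CPM in spaQ, a fall by 3.21 (SE 0.17).

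In the abscisic acid list NCED3, a gene for making the hormone, and CYP707A2, a gene for breaking it, moved in opposite directions. Of 23 genes tested 8 were higher and 14 lower, with a median of -0.70. NCED3, for the limiting step of synthesis, read 13.3, 10.4 and 11.2 CPM in Col-0 and 0.219, 0.314 and 0.469 CPM in spaQ, a fall by 5.12 (SE 0.21). CYP707A2, for an enzyme that inactivates the hormone, read 0.235, 0.311 and 0.455 CPM in Col-0 and 59.98, 67.8 and 63 CPM in spaQ, a rise by 7.58 (SE 0.16). No library of one genotype overlapped the other at either gene. The cold and abscisic acid marker genes KIN1 and KIN2 rose by 5.56 and 3.0, while the phosphatase gene HAI1 fell by 3.66 and RAB18, a dehydrin gene of the same response, by 1.06.

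Genes of the defence hormones salicylate and jasmonate were more often lower than higher. Of 12 salicylate and pathogen genes tested 1 was higher and 8 lower, with a median of -1.7. PR1, the standard marker of salicylate response, read 6.64, 7.37 and 7.64 CPM in Col-0 and 0, 0.0285 and 0.0391 CPM in spaQ, a fall by 8.07 (SE 0.41), and ICS1, for salicylate synthesis, fell by 1.27. PAD4, a partner of EDS1, rose by 1.2, and EDS1 fell by 1.66. Of 18 jasmonate genes tested 3 were higher and 12 lower, with a median of -0.44. AOC2, for a jasmonate synthesis enzyme, rose by 6.24 while the storage protein gene VSP1 fell by 6.39. Of 11 cytokinin genes tested 3 were higher and 4 lower, and the median of 0.18 turned to -0.19 with library totals. The response regulator genes ARR3 and ARR5 fell by 1.33 and 1.51. Of 6 genes for karrikin and strigolactone perception 3 were higher and 1 lower, the median of 0.36 turning to -0.013 with library totals, with the receptor gene KAI2 up by 1.3.

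**Figure D3:**
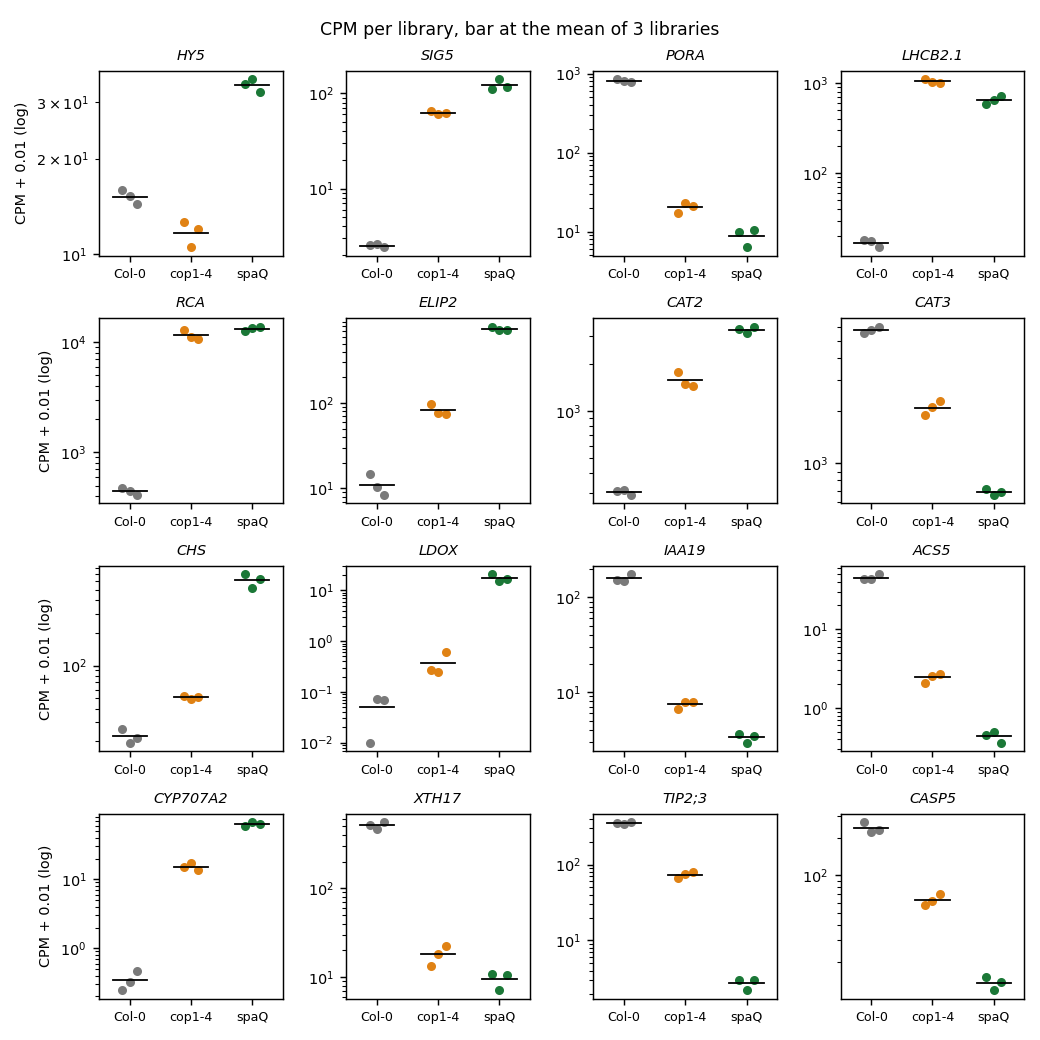
CPM (y axis, log scale with 0.01 CPM added) of 16 genes in each Col-0, spaQ and cop1-4 library, 1 point per library, 3 libraries per genotype, with a bar at the mean. The Col-0 and spaQ points are apart at every gene shown, with PORA, CAT3, IAA19, TIP2;3 and CASP5 lower and ELIP2, CHS and RCA higher in spaQ.

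Genes for elongation growth mostly fell. Of 18 wall-loosening genes 5 were higher and 12 lower, with a median of -1.78. XTH17, for a xyloglucan enzyme, read 513, 464 and 561 CPM in Col-0 and 10.9, 7.08 and 10.55 CPM in spaQ, a fall by 5.76 (SE 0.20), and the expansin gene EXPA8 read 159, 141 and 169 CPM in Col-0 and 17.3, 19.5 and 17 CPM in spaQ, a fall by 3.12 (SE 0.12). TCH4, another xyloglucan enzyme gene, rose by 2.61, and EXPA1, an expansin gene of guard cells, by 1.6. Of 8 genes for cellulose synthesis 0 were higher and 7 lower, with a median of -0.66. CESA4, CESA7 and CESA8, the synthases of secondary walls in vessels, fell by 2.01, 2.03 and 1.92, further than CESA6 of primary walls at -0.54. Of 9 beta-tubulin genes 0 were higher and 8 lower, with TUB1 at -2.78, though 24.2% of it is overlapped.

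Aquaporins, which let water into growing cells, fell as a family. Of 14 genes 1 was higher and 12 lower, with a median of -1.05, and their summed share of reads went from 2.82% to 3.167% in Col-0 to 1.22% to 1.35% in spaQ. TIP2;3, of the vacuole membrane, read 348, 337 and 363 CPM in Col-0 and 3.03, 2.2 and 3.01 CPM in spaQ, a fall by 7.0 (SE 0.13). TIP2;2 and the plasma membrane gene PIP2;4 fell by 3.84 and 5.32, and PIP1;4 rose by 0.76. TIP2;2, TIP2;3 and PIP2;4 are known mostly from roots, and markers of root endodermis moved with them, as given next. The part of root tissue in the aquaporin values was not tested.

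Markers of organs did not all follow 1 direction. Of 11 endodermis and suberin genes tested 1 was higher and 10 lower, with a median of -1.16, and the summed reads went from 0.105% to 0.118% to 0.0204% to 0.0220%. CASP5, of the Casparian strip, read 267, 223 and 231 CPM in Col-0 and 15.2, 11.8 and 13.8 CPM in spaQ, a fall by 4.15 (SE 0.12), and CASP1 to CASP4 fell by 2.73 to 3.28. SCR, which specifies the endodermis, also in the shoot, rose by 0.64. Root hair and epidermis genes did not follow the endodermis: of 8 tested 4 were higher and 2 lower, with a median of 0.31 that library totals turned to -0.059. Without spaQ replicate 3, 2 were called higher. Members of the list ranged from -0.94 to 1.01, the upper end being the root hair expansin gene EXPA7.

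Genes of the stomatal lineage rose. Of 17 tested 14 were higher and 2 lower, with a median of 1.43. FAMA, which completes guard cells, read 2.33, 1.87 and 2.27 CPM in Col-0 and 9.97, 9.3 and 9.42 CPM in spaQ, a rise by 2.14 (SE 0.14), and SPCH and MUTE, which open the lineage and drive it on, rose by 1.75 and 1.84. BASL, a polarity protein gene, rose by 2.52. ER, for a receptor that limits stomata and also promotes stem growth, fell by 1.41, and KAT1, for a guard cell potassium channel, fell by 1.17. The summed share of the list, which is not scaled by TMM, was 0.0302% to 0.0363% in Col-0 and 0.0275% to 0.0282% in spaQ. In TMM-scaled CPM the sum was 259 to 312 in Col-0 and 305 to 309 in spaQ. ER within the list read 160.1, 182 and 144 CPM in Col-0 and 63.6, 58.9 and 60.9 CPM in spaQ.

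Leaf genes rose more often than they fell, 13 against 5 of 21, with a median of 0.82. The YABBY genes YAB5 and YAB1, of the lower side of lateral organs, rose by 2.2 and 1.64, and TCP10, of leaf maturation, by 2.13, while the growth factor gene GRF2 fell by 1.44. Of 6 shoot meristem genes tested, 1 was higher and 3 lower, with STM at -0.84, and CUC1, CUC3, CLV3 and WUS had too few reads to be tested. Of 21 cell cycle genes 6 were higher and 8 lower, with a median of -0.19, and library totals raised the number lower to 15. CYCD1;1, a D-type cyclin gene, read 53.8, 57.9 and 59.4 CPM in Col-0 and 10.9, 9.87 and 11 CPM in spaQ and fell by 2.43 (SE 0.10).

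**Figure D4:**
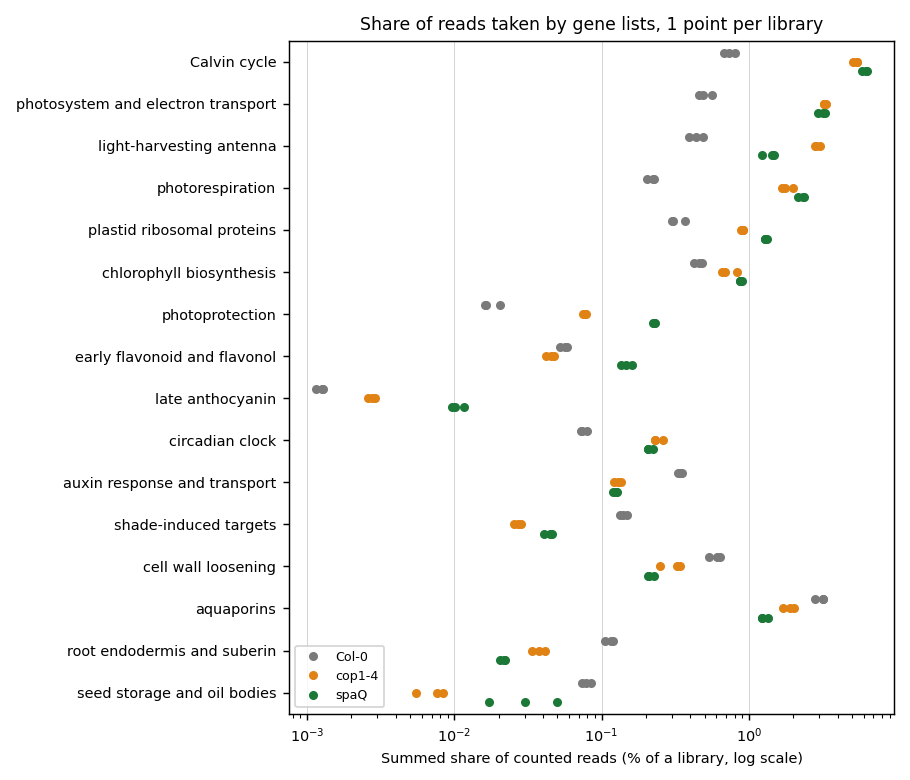
Summed share of counted reads (x axis, percent of a library, log scale) taken by 16 gene lists in each library, 1 point per library, 3 libraries per genotype. Plastid, photorespiration and flavonoid lists stand to the right in spaQ and aquaporin, wall, endodermis and auxin lists to the left, with the Calvin cycle at 0.681% to 0.799% in Col-0 and 5.87% to 6.31% in spaQ.

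Genes of nitrogen and sulfur assimilation differed in direction. Of 16 nitrogen genes tested 9 were higher and 5 lower, with a median of 0.76. ASN2, for an asparagine synthetase, read 17.2, 15.3 and 15.8 CPM in Col-0 and 417, 403 and 424 CPM in spaQ, a rise by 4.69 (SE 0.10), and the plastid glutamine synthetase gene GS2 and nitrate reductase gene NIA2 rose by 2.46 and 2.75. NRT1.1, for a nitrate transporter and sensor, fell by 2.38. Of 11 sulfur genes tested 2 were higher and 7 lower, with a median of -1.09. The sulfate transporter gene SULTR2;1 fell by 2.99, and of the APS reductase genes APR1 and APR3 fell by 2.26 and 1.05 while APR2 rose by 1.22.

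Starch and storage reserves also moved. Of 16 starch genes 10 were higher and 3 lower, with a median of 1.44, led by BAM3, a plastid beta-amylase gene, at 6.15 from 1.44, 1.96 and 1.49 CPM to 105, 128 and 113 CPM. In oil breakdown and the glyoxylate cycle 7 of 15 genes were higher and 3 lower, and the median of 0.16 turned to -0.21 with library totals. ICL and MLS, the enzymes particular to the glyoxylate cycle, rose by 2.0 and 1.71. PMDH2, for a peroxisomal malate dehydrogenase also used in photorespiration, rose by 3.58. Of 16 genes of energy starvation 9 were higher and 3 lower, with a median of 0.34 that library totals turned to -0.034. SEN1, a dark-induced gene, rose by 1.54 and DYL1, a dormancy-linked gene, fell by 2.95.

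Seed storage transcripts fell, but spread widely between the spaQ libraries. Of 18 genes 1 was higher and 12 lower, with a median of -1.83. OLEO3, an oleosin gene of oil bodies, read 51.3, 39.5 and 44.4 CPM in Col-0 and 1.02, 0.485 and 0.859 CPM in spaQ, a fall by 5.87 (SE 0.18). CRU1, a cruciferin gene, read 211, 183 and 208 CPM in Col-0 and 240.3, 80.5 and 144 CPM in spaQ, which was not called (log2 fold change -0.38, adjusted p = 0.205, edgeR). The spaQ value of CRU1 in replicate 1 stood above all Col-0 values and the others below them, and without that library CRU1 was called lower at -0.84. The summed share of the list was 0.0736% to 0.0852% in Col-0 and 0.0173% to 0.0497% in spaQ.

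Surface lipids, glucosinolates and metals held single large changes. Of 11 wax genes tested 3 were higher and 8 lower, with a median of -0.82. WSD1, for a wax ester synthase, read 6.04, 6.68 and 6.49 CPM in Col-0 and 0 in every spaQ library, at least 54.6-fold lower taking 3 counts per library as the floor, and CER1, of alkane synthesis, fell by 3.54. LTP1, a lipid transfer protein gene, rose by 2.46. Among 21 glucosinolate genes tested, 7 were higher and 13 lower, with a median of -0.42. Among members of the methionine-derived branch, MYB28 stood at 3.46, MAM3 at 3.74 and CYP83A1 at 4.77. CYP83A1 read 0.0784, 0.0622 and 0.0910 CPM in Col-0 and 2.34, 2.54 and 1.76 CPM in spaQ. The fold of CYP83A1 thus rests on few Col-0 reads. Among members of the tryptophan-derived branch MYB51 stood at -2.07, MYB122 at -2.36 and CYP83B1 at -1.29. Of 15 iron genes tested 10 were higher and 2 lower, with a median of 0.67. FRO6 and FRO7, for ferric reductases of shoot tissue and chloroplasts, rose by 5.73 and 5.55, while FIT1 and BHLH39, which drive iron uptake in roots, fell by 1.35 and 1.39.

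Heat, phosphate and oxygen stress lists did not share 1 direction. All 10 heat shock genes were higher, with a median of 1.88, which is 1.82 when a gene at 0 in Col-0 is held at its bound. HSP70 and HSP90.1, for chaperones, rose by 2.53 and 2.24. Of 11 phosphate starvation genes tested 2 were higher and 7 lower, with a median of -0.82, and MGD2 and MGD3, of lipid exchange under low phosphate, fell by 3.12 and 3.43. Of 11 low-oxygen genes 1 was higher and 6 lower, with a median of -0.41, and SUS4, a sucrose synthase gene of hypoxia, fell by 2.14.

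The largest rises were genes with almost no reads in the wild type. CYP706A6, for a cytochrome P450, read 0 in every Col-0 library and 15.3, 16.6 and 18.1 CPM in spaQ, at least 179-fold higher with the same floor. UGT73C1, for a glucosyltransferase, read 0 in Col-0 and 15, 15.2 and 15.7 CPM in spaQ, at least 164-fold higher. The RING-type gene AT3G11110, the unnamed gene AT5G55570 and the ABC transporter gene ABCF2 were also at 0 in all Col-0 libraries, and stood at least 64.1-, 60.7- and 52.2-fold higher. The 12 largest were ranked by fitted log2 fold change. For genes at 0 in all Col-0 libraries the reads give only these lower bounds, so their rank is uncertain. AT2G15020, for an uncharacterised protein, read 0.0784, 0.0622 and 0.0910 CPM in Col-0 and 103, 115 and 109 CPM in spaQ, a rise by 10.38 (SE 0.21). The other 6 of the 12 largest were AT3G09450, AT1G65490, AT3G28270, CYP71A22, AT1G51820 and the thionin gene THI2.2, with rises from 9.31 for THI2.2 to 10.58 for AT3G09450. AT1G51820, a receptor kinase gene, spread over 8.73, 21.9 and 7.66 CPM in the spaQ libraries.

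The 12 largest falls came from genes with varied known roles. WSD1 stood first by its fitted log2 fold change of -10.58, a rank that is uncertain because it had 0 reads in spaQ. After WSD1 came the peroxidase gene AT1G49570, at 129, 134 and 128 CPM in Col-0 and 0.0730, 0.200 and 0.117 CPM in spaQ, a fall by 9.86 (SE 0.15). MRN1, for marneral synthase, a triterpene enzyme, read 134, 198 and 188 CPM in Col-0 and 0.183, 0.200 and 0.313 CPM in spaQ, a fall by 9.55 (SE 0.23). In each of these genes every Col-0 library lay far above every spaQ library. The log2 fold changes were -9.84 for AT5G37950, a glycosyltransferase gene, -9.61 for the transporter gene UMAMIT36, -9.07 for the SAUR-like gene AT1G29490 and -8.57 for the pectin methylesterase gene PME61. CYP710A4 at -8.99 has a near-identical copy, CYP710A3, so its value is uncertain. IAA6, AT4G22610 of a lipid transfer family, the Kunitz inhibitor gene AT1G72290 and AT2G28780 made up the rest, at -8.94, -8.89, -8.78 and -8.7 in that order.

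Genes that were on in only 1 of the compared genotypes were few. A mean below 0.1 CPM in Col-0 with at least 1 CPM in every spaQ library was found for 66 genes, 8 of them at 0 in all Col-0 libraries, and the converse for 87. Of the 66, 2 were below 0.1 CPM in cop1-4 as well, ABCB13 and AT2G30766. Another gene overlaps 41.8% of AT2G30766, so its values are uncertain. Of the 87, 2 kept at least 1 CPM in every cop1-4 library, PUB54 and AT2G28780. PUB54, for a U-box protein, had 0.0730, 0.0285 and 0 CPM in the spaQ libraries, against 10.51, 10.51 and 8.52 CPM in Col-0. Its cop1-4 libraries stood between at 2.45, 2.48 and 2.79 CPM. These 4 genes were chosen after their values were seen.

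Where the state in spaQ differs from that of cop1-4, a weak allele of COP1, was tested directly between those libraries. Of the genes tested, 9862 (47.5%) were called, 4980 (24%) higher and 4882 (23.5%) lower in spaQ than in cop1-4. Flavonoid genes stood higher in spaQ: all 10 early genes and 8 of 9 late genes were called higher than in cop1-4 and 0 lower, with median differences of 2.22 and 4.1 on the log2 scale. CHS read 52.1, 49.4 and 51.1 CPM in cop1-4, below all spaQ libraries, a difference of 3.59 (SE 0.12). LDOX read 0.261, 0.233 and 0.604 CPM in cop1-4, a difference of 5.64 (SE 0.26). For plastid ribosomal proteins all 29 were called higher than in cop1-4, by a median of 0.60, and for photoprotection 8 of 9, with ELIP2 at 98.7, 76.7 and 75.2 CPM in cop1-4 and a difference of 3.16 (SE 0.16).

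Antenna genes went the other way between the mutants. Of 20 tested, 16 were called lower in spaQ than in cop1-4 and 4 higher, with a median difference of -0.79. LHCA1 read 1930.0, 2136 and 1987 CPM in cop1-4, above all spaQ libraries, a difference of -1.2 (SE 0.10), although both mutants stood above Col-0. Photosystem core genes were divided, with 8 higher, 11 lower and 12 not called. Aquaporins were further down in spaQ, with 12 of 14 called lower than in cop1-4 and 0 higher, among them TIP2;3 at 67.2, 75 and 78.5 CPM in cop1-4 and a difference of -4.76 (SE 0.12). In the endodermis list 9 of 11 were lower than in cop1-4 and 1 higher, and the part of root tissue in the aquaporin difference was not tested either. Among genes of energy starvation 10 of 16 were lower than in cop1-4 and 0 higher. HY5 stood at 12.6, 10.51 and 12 CPM in cop1-4, below all spaQ libraries, with a difference of 1.54 (SE 0.09). Against cop1-4, SPA1 and SPA3 were lower in spaQ, at -2.15 and -1.83, and COP1 and SPA4 higher, at 1.33 and 0.75. Seed storage genes were higher than in cop1-4 for 10 of 18 and lower for 2, with the spread between spaQ libraries given above.

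**Figure D5:**
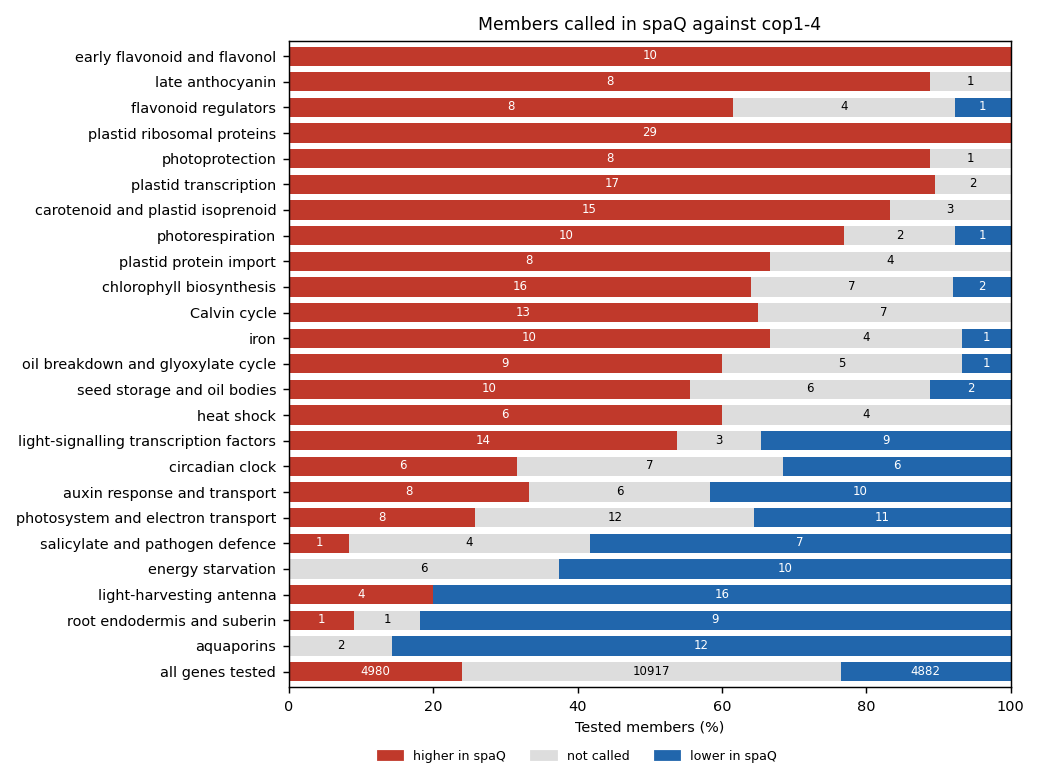
Share of each list's tested members (x axis, percent) called higher or lower in spaQ than in cop1-4, or not called, for 24 lists, with the counts printed in the bars, and with all genes tested in the last row (24% higher, 23.5% lower). All 10 early flavonoid genes and all 29 plastid ribosomal genes fall in the higher class, and 16 of 20 antenna genes in the lower.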

How the data were processed

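The deposited count table holds raw reads by gene, whole numbers that were not normalized, with 1 column for each library. The tools in the submitters' processing notes are TopHat, Bowtie2, HTSeq, FastQC and DESeq2, with build TAIR10 and no versions or order. RNA was extracted with a spectrum total RNA kit and libraries were TruSeq, per the labels' protocols. The authors' deposited tables of regulated genes were not used here. All 32548 AT identifiers matched RefSeq TAIR10.1, which gave names, positions, overlaps and promoter windows, and coordinates are in that assembly. Near-identical copies were found with blastn 2.17.0 at 95% identity or more over at least 50% of the length.

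Genes were filtered with filterByExpr, scaled by TMM and tested with edgeR 4.0.16 in R 4.3.3 (glmQLFit and glmQLFTest) in 1 fit of 9 libraries with genotype as the term and 6 residual degrees of freedom. Adjusted p-values are Benjamini-Hochberg values over all 20779 genes. The standard error (SE) comes from the log2 fold change and its test statistic. CPM values use TMM-scaled totals. Where all libraries of a group were at 0, the fold was set against a floor of 3 counts per library, which covers counting error only. The procedure was tested on simulated data in which few genes changed, evenly up and down. That simulation cannot check the scaling in a comparison where most genes were called. Replicates of a genotype differed by more than counting noise (chi-square per degree of freedom 3.18 to 19.5), so none was a second copy.

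The comparison, the 53 lists and the tests were chosen with earlier results of these data known. Of 864 list entries, 857 were kept because RefSeq pairs the identifier with the name. Named genes are the targeted loci, the 12 largest rises and 12 largest falls (called, mean log2 CPM of at least 1, libraries not overlapping) and up to 4 genes per list with the lowest adjusted p, and other list members are given with their values. No test of whole lists was made. Alternatives were library totals, RLE size factors, no filter, DESeq2 1.42.0, the 6 libraries alone, a replicate block and each library left out.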

Additional observations from a re-analysis of the deposited data

How the results depend on the processing

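The number of genes called between spaQ and Col-0 stayed between 14726 and 15931 over library totals, RLE size factors, no filter on low counts, DESeq2, the 6 libraries alone and the replicate block, and between 14078 and 15362 with 1 library left out. Between spaQ and cop1-4 it was 9474 to 9990 and 8437 to 10232. Of the calls made with TMM, 82.3% kept their direction and call with library totals and 96.2% with DESeq2. Library totals, which assume that the same RNA pool was sampled, changed most: 4760 genes were called higher, and the medians fell to -0.0074 for the targeted loci, -0.077 for the COP/DET/CUL4 machinery, -0.12 for photoreceptors, -0.32 for phenylpropanoids, -0.034 for energy starvation, -0.21 for oil breakdown, -0.19 for cytokinin, -0.013 for karrikin and strigolactone, -0.059 for root hair genes and -0.25 for reference genes. Members called higher became 2 for the targeted loci, 2 for the machinery, 2 for root hair genes and 1 for reference genes, and members called lower in the cell cycle list became 15. SPA1, SPA2, SPA3 and LHCB1.4 turned to -0.053, -0.31, -0.0074 and -0.13. With a library left out, the root hair list had 2 to 4 members called higher. Same-numbered spaQ and Col-0 libraries did not deviate together (correlations -0.00361, 0.0373 and 0.0301). These values show no pairing by number, though 3 libraries per genotype cannot exclude it. Same-numbered cop1-4 and Col-0 libraries stood at -0.091, -0.149 and 0.163, and unlike-numbered ones at -0.216 to 0.279. The replicate block gave 14731 calls, and 9585 between the mutants. The depth limits genes near 0, whose fold changes rest on single reads.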
